A study of Mus musculus with 6 samples.

Results

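The 8 genes Pcp2, Car8, Calb1, Itpr1, Ppp1r17, Slc1a6, Rgs8 and Gng13 were taken by symbol from a table of 18491 genes as genes of the cerebellar Purkinje cell, and all 8 were found. They were measured by RNA sequencing in 6 brain libraries of C57BL/6N mice at postnatal day 28. Libraries 1 to 3 of the Mettl5-/- genotype carried a homozygous knockout of Mettl5, which encodes a methyltransferase of the small-subunit ribosomal RNA, and libraries 1 to 3 of the wild type carried none. The labels used here state neither the part of Mettl5 that was removed, nor the extent of brain that each sample held, nor whether each library came from its own animal. P-values therefore cover only the variation among these libraries, part of which may come from handling.

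Purkinje cells are the large GABAergic neurons of the cerebellar cortex and its only output. Each receives a climbing fibre and very many parallel fibres from granule cells, and metabotropic glutamate receptors on its dendrites act through phospholipase C and inositol trisphosphate to release calcium from internal stores. Several of the 8 genes act in that calcium pathway: Itpr1 is the release channel, Car8 binds and restrains it, and Calb1 buffers the calcium. Pcp2, Ppp1r17 and Car8 are known for expression largely in Purkinje cells within the brain, whereas Calb1, Itpr1, Rgs8 and Gng13 are also used by neurons elsewhere in the brain. The genes are read here as a measure of the regional content of each library, and in whole tissue fewer Purkinje cells and less RNA per cell cannot be told apart.

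Knockout library 2 stood apart from the other 5 libraries in all 8 genes. It was the highest library for 8 of 8 members, against 18.1% of the 12885 genes tested. In all 8 it lay more than 1 unit above the next library on the log2(FPKM + 1) scale, against 0.567% of the genes tested, or 73 genes. FPKM counts fragments relative to transcript length and to the fragments mapped in a library, so that levels can be compared between genes. Sums of FPKM per library ran from 350727 to 377334, and absolute depth is unknown because the table holds no read totals. Mettl5 itself had 2.79, 3.81 and 2.40 FPKM in knockout libraries 1, 2 and 3, against 4.78, 5.16 and 5.92 FPKM in wild-type libraries 1, 2 and 3. Its log2 fold change was -0.66 (SE 0.15), with a Benjamini-Hochberg adjusted p of 0.79 from limma. All 3 knockout libraries, library 2 included, lay below all 3 wild-type libraries for Mettl5, and a 2-sided exact permutation test gave p = 0.1, the smallest this design allows.

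**Figure D1:**
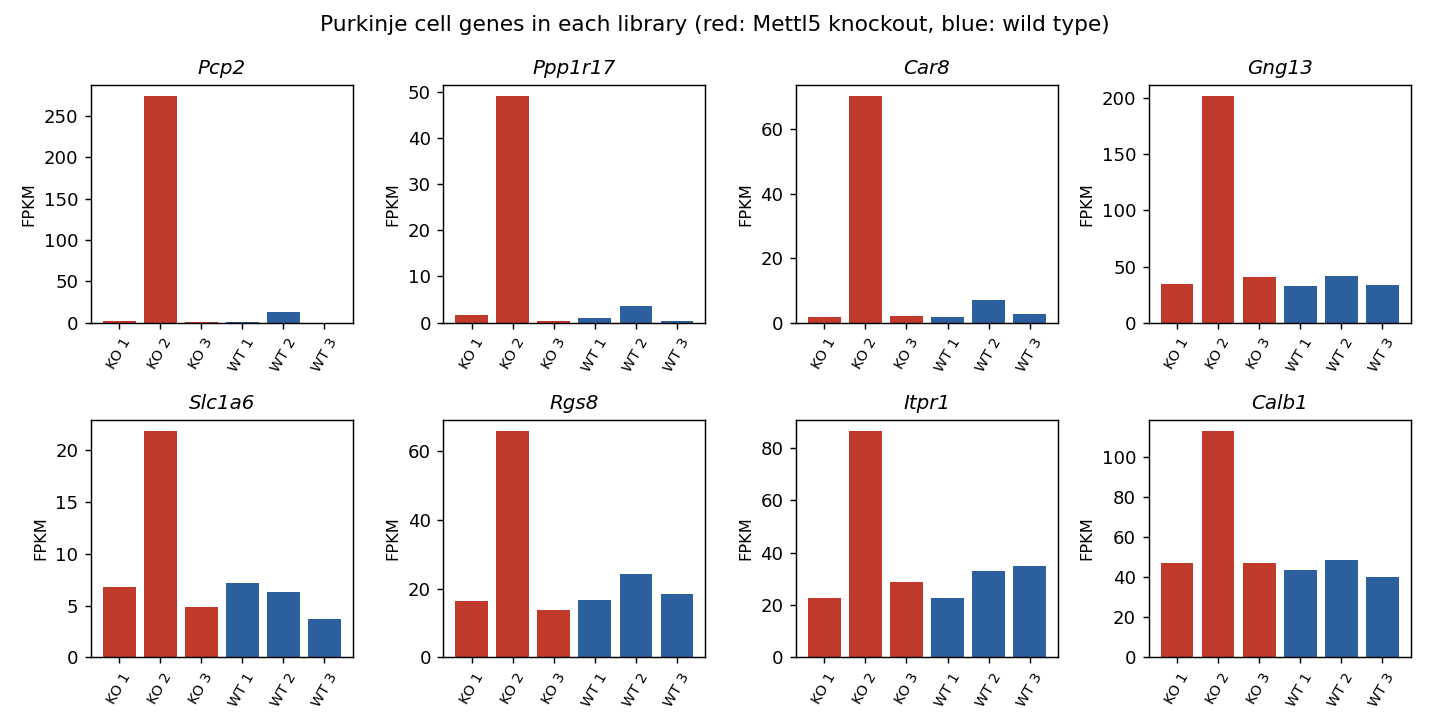
Level of each Purkinje cell gene in FPKM (vertical axis, own scale per panel, starting at 0) in the 6 libraries, with 1 bar per library, knockout (KO) in red and wild type (WT) in blue. Knockout library 2 is the highest bar in every panel, from 21.85 FPKM for Slc1a6 to 273.73 FPKM for Pcp2.

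Pcp2, also called L7, encodes a small GoLoco-domain protein that binds inhibitory G protein alpha subunits and is the classic marker of Purkinje cells (chromosome 8, 3623369 to 3625547, GRCm38). It had 2.30, 273.73 and 0.30 FPKM in knockout libraries 1, 2 and 3, against 0.48, 13.35 and 0 FPKM in wild-type libraries 1, 2 and 3. Knockout library 2 was very high, wild-type library 2 came next, the other 4 libraries were near or at 0, and the genotypes overlapped. The value of knockout library 2 was 20.5 times that of wild-type library 2 and made up 94.3% of the sum over the 6 libraries, where equal libraries would hold 16.7% each. Within its own library it exceeded 99.2% of all genes in knockout library 2, against 39.1% in knockout library 1 and 69.8% in wild-type library 2.

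Because the members varied together, the windows before their start sites were read for the 4 members present in the table of RefSeq promoters used here (GRCm38.p6). The 250 bases before the farthest upstream starts of Pcp2 (chr8:3625548-3625797, minus strand) and Gng13 (chr17:25716922-25717171, plus strand) are shown because these genes had the largest ratios of knockout library 2 to the next library among the 4. Capitals mark matches to any of 5 motifs searched on both strands: AGGTCA, the half-site of nuclear receptors such as Rora, the TATA-box motif TATAAA, the cyclic AMP response motif TGACGTCA, and the E-box motifs CAGCTG and also CACGTG. No matches overlap within these windows.
Pcp2: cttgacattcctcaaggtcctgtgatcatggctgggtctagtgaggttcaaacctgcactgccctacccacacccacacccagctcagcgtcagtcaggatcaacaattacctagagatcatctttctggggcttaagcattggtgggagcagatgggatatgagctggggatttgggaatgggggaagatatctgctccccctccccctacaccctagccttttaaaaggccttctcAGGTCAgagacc
Gng13: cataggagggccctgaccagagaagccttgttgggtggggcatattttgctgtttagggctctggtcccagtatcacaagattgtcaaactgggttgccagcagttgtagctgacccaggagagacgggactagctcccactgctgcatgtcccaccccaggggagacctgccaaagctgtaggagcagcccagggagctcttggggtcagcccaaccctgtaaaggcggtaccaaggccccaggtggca
The Pcp2 window held 1 match, AGGTCA from base -12 to base -7 counted from the start, and the Gng13 window held none. Over all 32851 windows of this length 14% held AGGTCA, and 4 of the 10 member windows did, 3 of them at starts of Pcp2, where 2 windows share the same match. A match of letters is a description of the sequence and not evidence of binding.

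Car8 and Ppp1r17 had the same shape as Pcp2. Car8 encodes a carbonic anhydrase-related protein without enzyme activity that lowers the affinity of the Itpr1 channel for inositol trisphosphate (chromosome 4, 8141493 to 8239041). It had 1.89, 70.32 and 1.97 FPKM in knockout libraries 1, 2 and 3, against 1.66, 6.98 and 2.76 FPKM in wild-type libraries 1, 2 and 3. Ppp1r17, known as the G-substrate, is a target of cGMP-dependent protein kinase that inhibits protein phosphatases (chromosome 6, 56017497 to 56032689). It had 1.68, 48.99 and 0.31 FPKM in the knockout, against 0.91, 3.51 and 0.30 FPKM in the wild type. In both genes library 2 was the highest of its genotype, and the genotypes overlapped. Knockout library 2 held 82.2% of the Car8 sum and 88.0% of the Ppp1r17 sum over the 6 libraries. Its values were 10.1 and 13.96 times those of wild-type library 2.

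Itpr1 and Calb1, the channel and the buffer of the calcium pathway, had a substantial level in every library. Itpr1 (chromosome 6, 108213083 to 108551116) had 22.77, 86.39 and 28.94 FPKM in knockout libraries 1, 2 and 3, against 22.59, 33.12 and 35.01 FPKM in wild-type libraries 1, 2 and 3. Calb1 (chromosome 4, 15881264 to 15906709) encodes calbindin and had 46.98, 112.93 and 47.21 FPKM in the knockout, against 43.67, 48.67 and 40.20 FPKM in the wild type. Without knockout library 2 the Calb1 values stayed within 40.20 to 48.67 FPKM, whereas Pcp2 ran from 0 to 13.35 FPKM in the same 5 libraries. Knockout library 2 was 2.47 times the next library for Itpr1 and 2.32 times for Calb1, the smallest ratios among the 8 members.

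Slc1a6, Rgs8 and Gng13 lay between these extremes. Slc1a6 encodes EAAT4, the glutamate transporter of Purkinje cell spines (chromosome 10, 78780086 to 78814825). It had 6.83, 21.85 and 4.82 FPKM in knockout libraries 1, 2 and 3, against 7.15, 6.34 and 3.72 FPKM in wild-type libraries 1, 2 and 3. Rgs8, a regulator that speeds the shut-off of inhibitory and Gq-type G proteins (chromosome 1, 153652959 to 153697669), had 16.32, 65.81 and 13.86 FPKM in the knockout, against 16.74, 24.16 and 18.33 FPKM in the wild type. For Rgs8 knockout library 2 was high, and knockout libraries 1 and 3 lay below all 3 wild-type libraries. Gng13, a G protein gamma subunit also known from taste and olfactory cells (chromosome 17, 25717172 to 25719102), had 34.61, 201.59 and 40.45 FPKM in the knockout, against 32.99, 41.55 and 33.34 FPKM in the wild type. For Slc1a6 and Gng13 knockout library 2 was high and the remaining libraries of both genotypes overlapped. The share of the 6-library sum in knockout library 2 was 52.4% for Gng13, 43.1% for Slc1a6 and 42.4% for Rgs8.

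Among the other 5 libraries, wild-type library 2 was the highest for 6 of 8 members, against 27.6% of the genes tested. The exceptions were Itpr1, highest in wild-type library 3, and Slc1a6, highest in wild-type library 1. Wild-type library 3 was the lowest of all 6 libraries for 4 members, wild-type library 1 for 3 and knockout library 3 for 1. The sum of the 8 levels was 133, 882 and 138 FPKM in knockout libraries 1, 2 and 3, against 126, 178 and 134 FPKM in wild-type libraries 1, 2 and 3.

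The comparison between genotypes asked whether the 8 genes differed between Mettl5-/- and wild-type brains. All 8 had a log2 fold change above 0, against 49.1% of the genes tested, but none passed the test and none separated the genotypes, against 11.9% of genes tested that separated in either direction. Car8 averaged 24.7 ± 39 FPKM in the knockout and 3.80 ± 2.8 FPKM in the wild type, and Gng13 averaged 92.2 ± 95 FPKM in the knockout and 36.0 ± 4.8 FPKM in the wild type (SD, n = 3 each). Calb1 averaged 69.0 ± 38 FPKM in the knockout and 44.2 ± 4.3 FPKM in the wild type. In each of these genes knockout library 2 lay far above the other 2 knockout libraries.

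The test was limma on log2(FPKM + 1), and log2 fold changes on this scale understate the change of low genes. The log2 fold change was 1.93 (SE 2.4; 95% confidence interval -4.11 to 7.97) for Pcp2, 1.32 (SE 1.4) for Ppp1r17 and 0.98 (SE 1.4) for Car8. It was 0.86 (SE 0.66) for Gng13, 0.63 (SE 0.51) for Slc1a6, 0.51 (SE 0.33) for Calb1, 0.37 (SE 0.48) for Itpr1 and 0.33 (SE 0.57) for Rgs8. With Benjamini-Hochberg adjustment over all 12885 genes tested, the limma adjusted p of the 8 members lay between 0.810 and 0.934. The adjusted threshold of 0.05 was met by 0% of all genes tested, and 6.05% had an unadjusted limma p under 0.05, among them 0 of the 8 members. The median log2 fold change of the members was 0.75, beside -0.0032 over all genes tested.

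Without knockout library 2 the higher level in the knockout was not seen. The median log2 fold change of the members was then -0.23, beside -0.0075 over all 12854 genes tested, with 3 members above 0 and 5 below, against 48.2% of genes above 0. Knockout libraries 1 and 3 averaged 15.1 FPKM for Rgs8, against a wild-type mean of 19.7 FPKM, and 1.93 FPKM for Car8, against 3.80 FPKM. The log2 fold change without that library was -0.42 (95% confidence interval -4.03 to 3.19) for Pcp2, -0.56 (-1.68 to 0.57) for Car8 and -0.26 (-1.77 to 1.26) for Ppp1r17. It was -0.35 (-0.74 to 0.031) for Rgs8 and -0.20 (-0.68 to 0.28) for Itpr1. Calb1, Gng13 and Slc1a6 stayed close to 0, at 0.094 (-0.17 to 0.36), 0.064 (-0.26 to 0.39) and 0.041 (-0.57 to 0.65). None passed in limma with Benjamini-Hochberg adjustment (lowest adjusted p 0.621), and 0 of 8 had an unadjusted p under 0.05, against 8.13% of genes. Without both libraries numbered 2, an alternative chosen after seeing the data, the median over the 6 members that could be tested was 0.0060, with 3 above 0 and 3 below. With all 6 libraries but weights that count outlying libraries less, the median of the 8 members was 0.36, and all 8 stayed above 0.

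**Figure D2:**
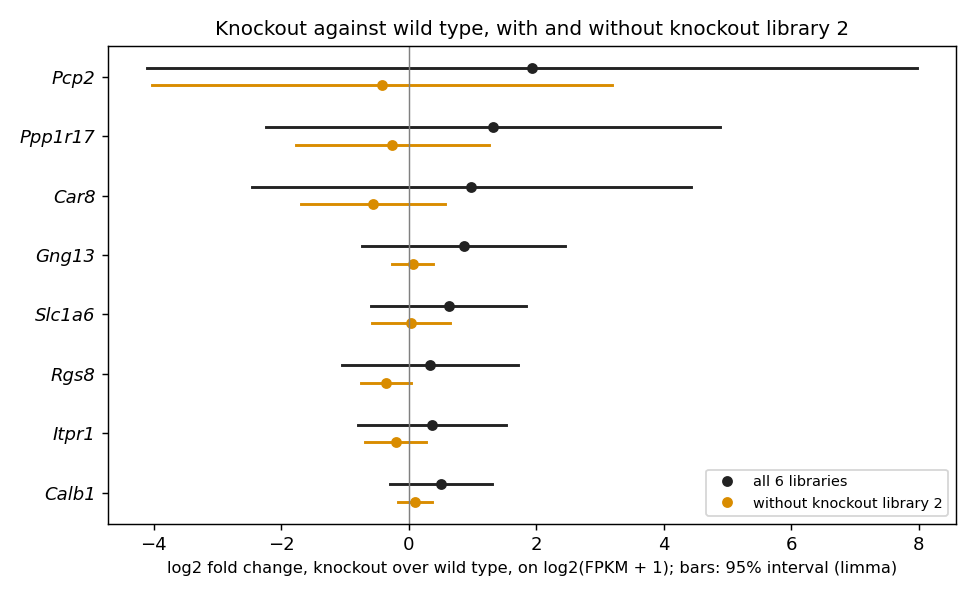
Log2 fold change of each Purkinje cell gene, knockout over wild type, on the log2(FPKM + 1) scale (horizontal axis), with 95% confidence intervals from limma as bars, from all 6 libraries in black and without knockout library 2 in orange. All 8 black points lie above 0, 5 of the 8 orange points lie below 0, and every interval crosses 0.

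Same-numbered libraries of the genotypes deviated together across genes, so differences within each number were also read. Within number 2 the knockout exceeded the wild type by 4.26 log2 units for Pcp2, 3.47 for Ppp1r17, 3.16 for Car8, 2.25 for Gng13 and 1.20 for Calb1. Within number 1 the difference was 1.16 for Pcp2, 0.49 for Ppp1r17, 0.12 for Car8, 0.067 for Gng13 and 0.10 for Calb1. Within number 3 it was 0.38 for Pcp2, 0.011 for Ppp1r17, -0.34 for Car8, 0.27 for Gng13 and 0.23 for Calb1. Pcp2, Ppp1r17, Calb1 and Gng13 were thus higher in the knockout within all 3 numbers, 4 of 8 members against 19.5% of the genes tested. The other 4 changed sign between numbers. Within number 3 the direction rested on values near 0 for Ppp1r17 (0.31 against 0.30 FPKM) and Pcp2 (0.30 against 0 FPKM). No counting error can be given for such values, so the count of 4 is not firm. With the replicate number as a block, 0 of 8 members passed (limma adjusted p 0.386 to 0.723).

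Other markers of Purkinje cells, 18 genes, were read beside the members. They were chosen with earlier results of these data known, so they are no independent check of the cell type. All 18 were detected and 16 were tested. Knockout library 2 was the highest for 14 of the 16, and for 7 it lay more than 1 log2 unit above the next library. Of the 16, 12 also averaged 1 FPKM or more without that library. Arhgef33, Lhx1, Lhx5 and Stac reached that mean only through knockout library 2, so their part in these counts was largely set by the filter. Arhgef33 had 0.96, 12.53 and 0.66 FPKM in knockout libraries 1, 2 and 3, against 0.44, 1.01 and 0.42 FPKM in wild-type libraries 1, 2 and 3. Homer3, a dendritic scaffold, had 9.16, 41.94 and 10.29 FPKM in the knockout, against 7.74, 7.27 and 8.48 FPKM in the wild type. Lhx1, a transcription factor kept on in Purkinje cells, had 4.50 FPKM in knockout library 2 and 0.05 to 0.88 FPKM in the others.

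Foxp2, a transcription factor that forebrain neurons also use, had 4.06, 4.05 and 1.73 FPKM in the knockout, against 4.04, 4.48 and 3.68 FPKM in the wild type. Its highest value was in wild-type library 2. Of the zebrin genes that mark Purkinje cell stripes, Aldoc had 313.57, 530.58 and 326.95 FPKM in the knockout, against 406.21, 425.43 and 367.52 FPKM in the wild type, but Aldoc is also abundant in astrocytes. Over all 6 libraries 0 of the 16 tested markers had an unadjusted limma p under 0.05, against 6.05% of the genes tested. Their median log2 fold change was 0.20, and it was -0.26 over the 12 tested without knockout library 2. Of those 12, 2 were higher and 3 lower at an unadjusted limma p under 0.05, against 8.13% of 12854 genes in either direction.

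The receptor and calcium pathway upstream and downstream of Itpr1 showed the same split. Of its 17 genes other than members, 16 were tested, and knockout library 2 was the highest for 11 and more than 1 log2 unit above the next for 3, among them Homer3 and Inpp5a. Inpp5a, which removes inositol trisphosphate, had 24.53, 66.73 and 15.82 FPKM in knockout libraries 1, 2 and 3, against 25.56, 28.88 and 23.54 FPKM in wild-type libraries 1, 2 and 3. The G protein subunit Gnaq, used by neurons in general, had 49.02, 44.44 and 53.15 FPKM in the knockout, against 45.95, 40.03 and 50.62 FPKM in the wild type. None of the 16 had an unadjusted limma p under 0.05, against 6.05% of the genes tested. The median log2 fold change was 0.17, or -0.031 without knockout library 2.

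Among markers of the other cells of the cerebellar cortex, those of granule cells had the same shape as the Purkinje cell genes. Most genes listed for the other cells did not, but many of them are shared with cells elsewhere in the brain. For granule cells, the source of the parallel fibres, knockout library 2 was the highest for 13 of 13 genes tested and more than 1 log2 unit above the next for 11. Of the 13, 10 also averaged 1 FPKM or more without that library. Fat2, Cdh15 and Barhl1 reached that mean only through knockout library 2, so their part in these counts was largely set by the filter. Gabra6, a GABA receptor subunit of granule cells, had 0.16, 86.25 and 0.21 FPKM in knockout libraries 1, 2 and 3, against 0.08, 4.77 and 0.03 FPKM in wild-type libraries 1, 2 and 3. Cbln3, a secreted cerebellin, had 1.09, 74.20 and 1.06 FPKM in the knockout, against 1.20, 4.78 and 0.68 FPKM in the wild type. The summed level of the granule cell list was 98.3, 658 and 83.5 FPKM in the knockout, against 94.4, 134 and 104 FPKM in the wild type. The ratio of knockout library 2 to wild-type library 2 varied over the 13 granule cell genes, from 1.30 for Barhl1 and 1.97 for Etv1 to 18.1 for Gabra6, and over the 8 Purkinje cell genes it ran from 2.32 for Calb1 to 20.5 for Pcp2. Gdf10, a Bergmann glia gene, had 4.28, 50.42 and 4.77 FPKM in the knockout, against 3.61, 4.95 and 3.54 FPKM in the wild type, whereas the other 7 genes of that list are shared with astrocytes or other brain cells and none lay more than 1 log2 unit above the next library. Of the 5 unipolar brush and Golgi cell genes tested, knockout library 2 was the highest for 2 and more than 1 log2 unit above the next for 1. That 1 was Eomes, with 0.13, 4.57 and 0.19 FPKM in the knockout, against 0.22, 0.95 and 0.25 FPKM in the wild type. It passed the filter only through knockout library 2. Eomes, Tbr1, Calb2 and Slc6a5 also stand in the olfactory, cortical, thalamic and hindbrain lists, so none isolates cerebellar cells. The part of cerebellar tissue content in the Purkinje cell values was not tested, because the labels name the tissue as brain without its regions.

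**Figure D3:**
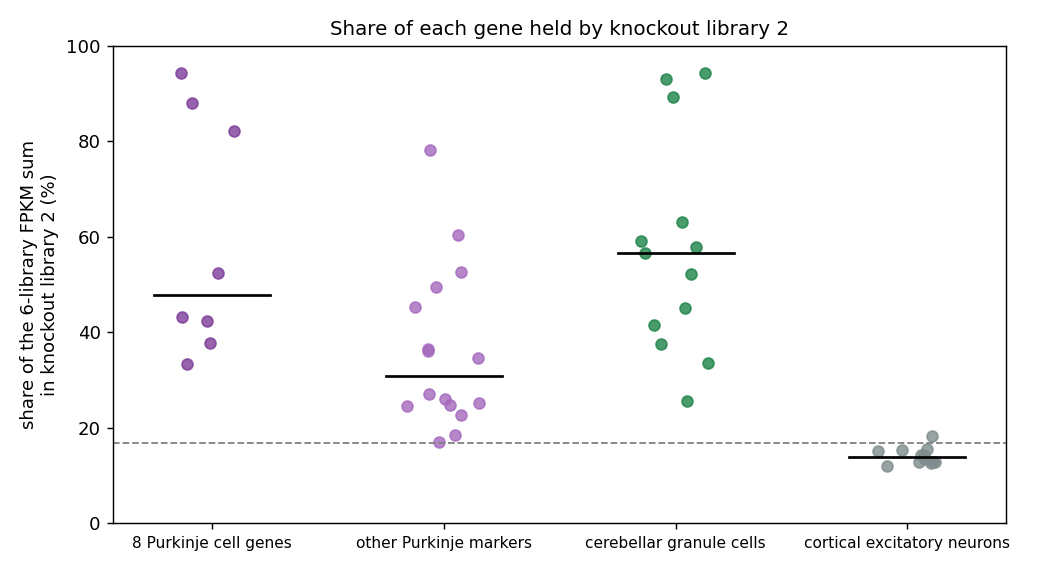
Share of each gene's 6-library FPKM sum held by knockout library 2 (vertical axis, %), with 1 point per tested gene, black lines at the medians and a dashed line at the equal share of 16.7%. The medians are 47.8% for the 8 Purkinje cell genes, 30.8% for other Purkinje markers, 56.5% for granule cell genes and 13.9% for cortical excitatory neuron genes. Some of the other Purkinje markers and granule cell genes passed the filter for testing only through knockout library 2.

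Marker lists for regions outside the cerebellum and for oligodendrocytes gave each library a different profile. A list's level is the median over its genes of the deviation from the wild-type mean, in log2(FPKM + 1) units. For the 8 Purkinje cell genes it was 0.023, 2.13 and -0.32 in knockout libraries 1, 2 and 3, while the wild-type libraries in the same order stood at -0.22, 0.25 and -0.16. Striatal medium spiny neuron genes were at -0.051, 0.64 and -0.58 in the knockout, against -0.38, 1.07 and -0.69 in the wild type, so that library 2 of both genotypes was the highest of its group but the wild-type library exceeded the knockout library. Cortical excitatory neuron genes ran the other way, at 0.097, -0.25 and 0.41 in the knockout, against 0.023, -0.21 and 0.18 in the wild type. Thalamic neuron genes (0.12, -0.30 and -1.25 in the knockout, against 0.093, -0.15 and 0.057 in the wild type) and myelinating oligodendrocyte genes (-0.31, -0.31 and -1.71, against -0.11, 0.16 and -0.047) were lowest in knockout library 3.

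The level of the hindbrain and spinal identity list was highest in library 2 of each genotype, at 0.33 in the knockout and 0.42 in the wild type. Most of its genes were near 0: only 3 of 12 averaged 1 FPKM or more. Of those 3, 0 had a log2 fold change above 0, against 49.1% of the genes tested. Hoxb5, a homeobox gene of the caudal hindbrain and spinal cord, had 0, 3.31 and 0 FPKM in knockout libraries 1, 2 and 3, against 0.03, 0.77 and 0 FPKM in wild-type libraries 1, 2 and 3. Tph2, the serotonin-synthesis enzyme of raphe neurons, had 0.48, 1.29 and 0.35 FPKM in the knockout, against 1.47, 8.22 and 0.37 FPKM in the wild type. The highest value thus fell in knockout library 2 for Hoxb5 and in wild-type library 2 for Tph2, and for Tph2 wild-type library 1 also exceeded knockout library 2. Retinal genes, read because Pcp2 is also made by retinal bipolar cells, stayed low: the 10 genes summed to 2.28 to 3.02 FPKM in the knockout and 2.80 to 3.16 FPKM in the wild type, and none reached a mean of 1 FPKM. Omp, the marker of olfactory sensory neurons, which also use Gng13, was at 0.06 FPKM in knockout library 2 and at 0 to 0.47 FPKM in the others.

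**Figure D4:**
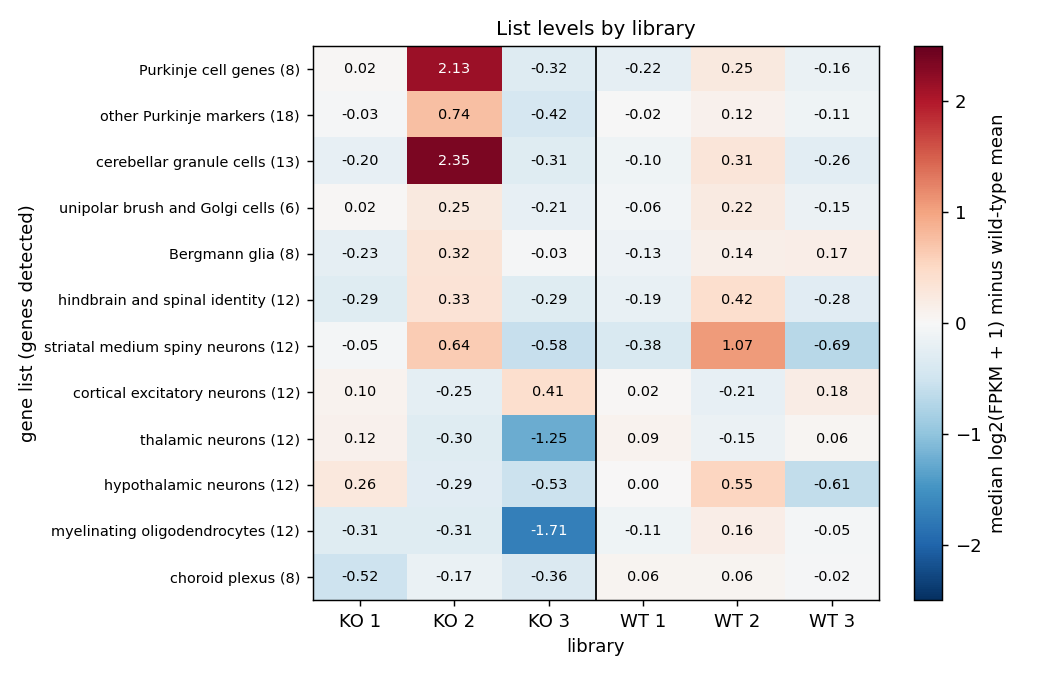
Level of 12 gene lists (rows) in the 6 libraries (columns, knockout left of the line and wild type right of it), as the median deviation from the wild-type mean in log2(FPKM + 1) units, with the value in each cell. The Purkinje cell row reads 2.13 and the granule cell row 2.35 in knockout library 2, while the thalamic and oligodendrocyte rows are lowest in knockout library 3, at -1.25 and -1.71.

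Gng13, Car8, Rgs8, Pcp2, Ppp1r17 and Slc1a6 ranked higher within their own gene families in knockout library 2 than in any other library, whereas Calb1 and Itpr1 did not. Gng13 was the most abundant of 12 G protein gamma subunits there, with 201.59 FPKM beside 145.68 FPKM for Gng3, while in the other 5 libraries it ranked 4 or 5 and Gng3 led with 170.26 to 190.50 FPKM. Car8 ranked 2 of 16 carbonic anhydrases in knockout library 2, behind Car11 at 88.30 FPKM, and ranked 7 to 10 in the others. Rgs8 ranked 2 of 19 RGS genes in knockout library 2, behind Rgs4 at 92.82 FPKM, and ranked 6 to 10 in the others. Of 15 other carbonic anhydrases, 18 other RGS genes and 11 other gamma subunits, the 1 gene more than 1 log2 unit above the next library in knockout library 2 was Car9. It had 3.03 FPKM there and 0.20 to 0.41 FPKM in the others, and its mean was under the filter for testing. Among 5 other calcium buffers there was also 1, Pvalb, with 225.89 FPKM there and 25.06 to 87.05 FPKM in the others. The families of the remaining members had 0. In knockout library 2 Pcp2 ranked 1 of 7 GoLoco genes, against 3 in wild-type library 2 and 7 in the others. Ppp1r17 ranked 4 of 8 phosphatase regulators there, against 7 in the others, and Slc1a6 ranked 5 of 7 glutamate transporters, against 6. Calb1 ranked 4 of 6 calcium buffers there and 2 to 4 in the others. Itpr1 was the most abundant inositol trisphosphate receptor in all 6 libraries, and Itpr2 stayed at 2.53 to 3.72 FPKM. Slc1a6 remained far below the glial transporter Slc1a2, which had 203.78, 220.52 and 303.82 FPKM in the knockout, against 198.53, 217.59 and 314.43 FPKM in the wild type.

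Among 10092 other tested genes with an SD of at least 0.1 on the log2 scale, the 10 whose values were most like the mean of the 8 members were Cbln3, Col18a1, Fat2, Tuba8, Bcl2l15, Prpf38b, Git2, Rgl3, Gabra6 and Foxred2. Their Pearson correlations over the 6 libraries were 0.991 to 0.997, and 257 genes exceeded 0.9. All 6 points share their library, and knockout library 2 sets most of the spread, so these are given as a description. Over the 5 libraries without it the same 10 genes had correlations of 0.916 to 0.986. These 5 libraries were part of the correlation by which the 10 genes were picked, so the values are no separate check. Fat2 and Bcl2l15 averaged 1 FPKM or more only through knockout library 2. The sizes differed: Fat2 had 0.07, 14.31 and 0.07 FPKM in knockout libraries 1, 2 and 3, against 0.04, 0.87 and 0.01 FPKM in wild-type libraries 1, 2 and 3, whereas Prpf38b had 20.66, 26.01 and 20.59 FPKM, against 20.93, 21.75 and 20.50 FPKM.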

How the data were processed

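Brain RNA was selected for poly(A) tails before sequencing, per the labels' protocols. The authors deposited FPKM values with 2 decimals, 1 column per library, per the file headers. Bowtie2, RSEM and mm10 are named in the submitters' processing notes, with no version, annotation or strand setting. Of 29 symbols that a spreadsheet had turned into dates or dashes, 27 were restored by gene ID. Coordinates and promoters came from RefSeq GRCm38.p6, the assembly mm10 names. Groups followed the genotype label and replicate numbers the titles.

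Genes averaging 1 FPKM or more were tested with limma 3.58.1 under R 4.3.3, using an intensity trend and a robust prior, on log2(FPKM + 1), 2-sided, with Benjamini-Hochberg adjustment at 0.05, after a check on simulated data. All 8 members passed the filter, also without knockout library 2, but Pcp2 and Ppp1r17 did not when both libraries numbered 2 were left out. Tables, the exact permutation test and figures used Python 3.11.15, pandas 2.3.3, numpy 2.4.6, SciPy 1.17.1 and matplotlib 3.10.9.

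The members and the 25 other gene lists were chosen with earlier results of these data known. Of 223 genes in the other lists 174 were tested, 0 passed the adjusted threshold and 12 had an unadjusted limma p under 0.05, against 6.05% of all genes tested. Named genes were all members, Mettl5, list genes by role or lowest p, the most abundant paralogues and the 10 most alike genes. Genes named for their value in knockout library 2 (Gdf10, Eomes, Arhgef33, Car9, Hoxb5, Tph2, Omp and Aldoc among them) were chosen after their values were seen. The replicate numbers were taken to pair the libraries, because deviations from the group means correlated at 0.485, 0.413 and 0.539 within numbers 1, 2 and 3, each over 0.1. This comes from the data and not from the labels.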

Additional observations from a re-analysis of the deposited data

How the results depend on the processing

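The count of 0 members past the threshold held under every alternative run: a pseudocount of 0.1, no filter, a common sum per library, quantile normalization, array weights, a plain eBayes prior, the replicate block and leaving out each library. The replicate block called 0 genes and 0 members, as did the unblocked fit, but 14.3% of genes had an unadjusted p under 0.05 with it, against 6.05% without. Leaving out 1 library at a time moved the members' median log2 fold change between -0.23 and 1.12, the lowest without knockout library 2, which also turned the direction of 5 members. These ranges were -0.42 to 3.44 for Pcp2, -0.56 to 1.76 for Car8, -0.20 to 0.74 for Itpr1, -0.26 to 2.37 for Ppp1r17 and -0.35 to 0.73 for Rgs8. Without both libraries numbered 2, an alternative chosen after seeing the data, the values were -0.11 for Car8, -0.13 for Itpr1 and -0.21 for Rgs8, beside 0.16 for Calb1, 0.12 for Slc1a6 and 0.17 for Gng13. Array weights lowered the members' median to 0.36 and 7 members by over 1.5 times, with values of 0.96 for Pcp2, 0.76 for Ppp1r17, 0.42 for Gng13, 0.30 for Calb1, 0.19 for Car8, 0.049 for Rgs8 and 0.015 for Itpr1. The count of genes called ran from 0 to 1 when libraries were left out (Rps27rt without wild-type library 3) and was 1 without the low-value filter (Hist2h2aa2). The cause was not tested. List levels of the cerebellar patterning, olfactory, choroid plexus and hindbrain lists moved by more than the spread between libraries in 5 cases, under the smaller pseudocount or a filter at 1 FPKM. Rescaling to a common sum moved the median of all genes tested to 0.023. Depth is unknown, so no counting error can be given for the low values of Pcp2 and Ppp1r17.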
